A study of Homo sapiens with 23 samples.

Results

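HNF4A, CDX1, CDX2, GATA6, KLF4, KLF5, ELF3 and EHF encode DNA-binding proteins that set or maintain epithelial identity in the intestine, and their transcript levels were described in 8 RNA-seq libraries of HCT116, a human colorectal cancer cell line. The 8 genes were taken by name from 28105 genes with a symbol, each represented by the RefSeq transcript with the highest mean read count, and 7 of them were among the 16831 genes with enough reads to test. The libraries form 4 groups of 2: MLL4 KO cells and WT cells, and BAP1 KO cells and cells labelled control, whose genotype is given as WT. MLL4, encoded by KMT2D, methylates histone H3 at enhancers, and BAP1 is a deubiquitinase of histone H2A. All were grown in McCoy's 5A medium with serum, and the RNA-seq labels name no treatment. The names of the control and BAP1 KO tables carry osTir1, a plant auxin receptor used in degron systems, which the WT and MLL4 KO tables do not, so each knockout was set against its own unedited group. Numbers in the table names differ between replicates of MLL4 KO, WT and BAP1 KO. The labels do not say whether replicates were separate clones or cultures, so p-values measure only the spread between these libraries.

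In the intestine, CDX2 and CDX1 are homeobox factors that specify the hindgut epithelium, and HNF4A, a nuclear receptor, acts with them on genes of absorptive enterocytes. GATA6 is a zinc finger factor of endoderm and of crypt cells. KLF5 marks proliferating crypt cells and KLF4 differentiated cells nearer the lumen, while ELF3 and EHF are ETS-domain factors of differentiating epithelia. A colorectal cancer line may keep parts of this set and lose others.

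In the libraries labelled BAP1 KO, 4 of the 7 tested genes fell: HNF4A 8.85-fold, ELF3 5.32-fold, KLF4 2.86-fold and CDX2 1.62-fold. EHF was 55.8-fold lower in those libraries but did not pass the test. In the libraries labelled MLL4 KO, KLF5 rose 4.9-fold, and the other 6 tested genes did not pass. CDX1 had no read in any library. Changes were tested with edgeR's quasi-likelihood test on counts, fitted to all 8 libraries, with Benjamini-Hochberg adjustment over all tested genes and a threshold of 0.05, and the ± beside a log2 fold change is its standard error.

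Counts summed over genes ranged from 24.8 to 42.2 M reads per library. KMT2D itself stood at 280.0 and 406 CPM (counts per M counts, after scaling between libraries) in MLL4 KO libraries, against 309 and 371 CPM in WT libraries. BAP1 stood at 67.4 and 57.4 CPM in BAP1 KO libraries, against 56.7 and 62.1 CPM in control libraries. Neither transcript was lower in its own knockout, so RNA levels gave no check of those labels, and protein was not measured here. Intestinal markers were sparse: of 38 enterocyte genes 15 had enough reads to test, and 6, FABP1 among them, had no read. Villin (VIL1), among the highest of that list, ranged from 11.9 to 17.2 CPM, while CDH17, also tested, did not exceed 0.452 CPM. Markers of other cell types were uneven. The T cell gene CD3E, the B cell gene MS4A1 and the fibroblast genes DCN and LUM had no read, and the common leukocyte gene PTPRC did not exceed 0.128 CPM. The collagen gene COL1A1, on the fibroblast list, stood at 25.5 to 54.9 CPM and carried most of that list's summed level of 26.0 to 55.2 CPM. CD68, a lysosomal gene on the leukocyte list, stood at 4.28 and 8.05 CPM in BAP1 KO libraries, against 27.3 and 28.2 CPM in control libraries, and at 4.03 to 9.01 CPM in MLL4 KO and WT libraries. The part of these genes in the results below was not tested.

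Of the 7 tested genes, 1 was called in MLL4 KO, against 19.1% of all tested genes in either direction and 9.13% higher. In BAP1 KO, 4 were called and all were lower, against 22.4% of tested genes in either direction and 10.4% lower. The median log2 fold change of the 7 was 0.26 in MLL4 KO and -1.52 in BAP1 KO, beside medians of 0.0 and 0.01 over all tested genes. Libraries of BAP1 KO lay below those of control without overlap for 5 of the 7, as they did for 35.2% of tested genes. Libraries of MLL4 KO lay above those of WT without overlap for 3 of the 7 and below for 1, beside 30.0% and 30.3% of tested genes.

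**Figure D1:**
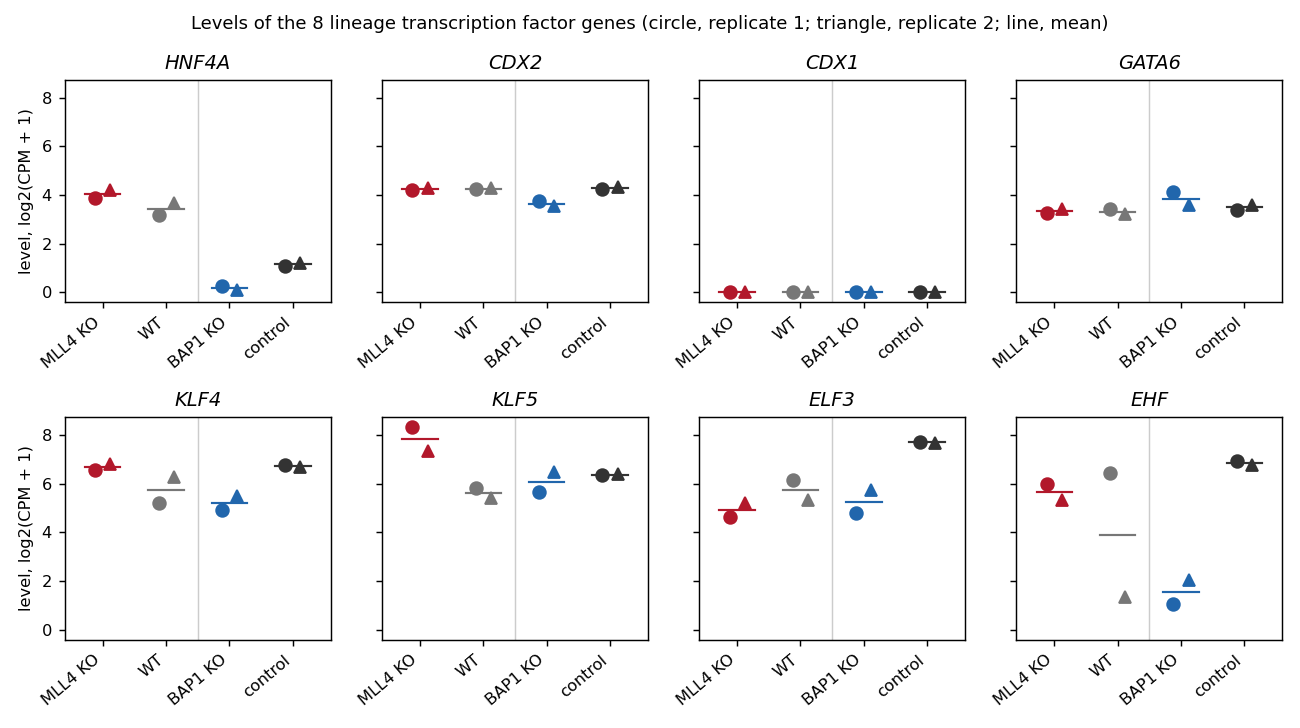
Level of each of the 8 genes in every library, as log2(CPM + 1) on the vertical axis, with MLL4 KO, WT, BAP1 KO and control along the horizontal axis; circles are replicate 1, triangles replicate 2 and lines the mean of both. HNF4A, KLF4, ELF3 and EHF are lower in both BAP1 KO libraries than in both control libraries, KLF5 is higher in both MLL4 KO libraries than in all others, CDX1 lies at 0, and the 2 WT libraries are far apart for EHF.

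The genes were set against each other per transcript length by the deposited RPKM (reads per kilobase of transcript and per M reads). KLF5, ELF3, KLF4 and EHF averaged 26.1, 20.1, 19.3 and 7.68 RPKM over the 8 libraries, and CDX2, GATA6 and HNF4A 3.8, 2.29 and 0.836 RPKM. In MLL4 KO the order was KLF5 at 57.3 ± 27.4 RPKM (SD, n = 2, as for all means here), KLF4 at 26.7 ± 3.15, EHF at 7.59 ± 2.61, ELF3 at 7.41 ± 2.15, CDX2 at 4.18 ± 0.139, GATA6 at 2.0 ± 0.176 and HNF4A at 1.94 ± 0.331 RPKM. The libraries of EHF and ELF3, and those of GATA6 and HNF4A, overlapped in that order. In WT, KLF4 at 14.6 ± 6.97, ELF3 at 13.7 ± 6.03, KLF5 at 11.8 ± 2.69 and EHF at 6.56 ± 8.96 RPKM could not be ordered beyond their spread. Below them in WT came CDX2 at 4.21 ± 0.0518, which EHF overlapped, then GATA6 at 1.99 ± 0.26 and HNF4A at 1.24 ± 0.306 RPKM.

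In BAP1 KO, KLF5 at 16.5 ± 6.38, ELF3 at 9.65 ± 4.3 and KLF4 at 9.54 ± 2.6 RPKM overlapped their neighbours. GATA6 at 2.99 ± 0.842 and CDX2 at 2.65 ± 0.296 RPKM overlapped each other, and EHF at 0.306 ± 0.206 and HNF4A at 0.0164 ± 0.0107 RPKM came last. In control no neighbours overlapped: ELF3 stood at 49.6 ± 0.479, KLF4 at 26.4 ± 0.637, KLF5 at 18.7 ± 0.288, EHF at 16.3 ± 1.02, CDX2 at 4.14 ± 0.225, GATA6 at 2.16 ± 0.253 and HNF4A at 0.145 ± 0.0136 RPKM. By mean, ELF3 led in control and KLF5 in both knockouts. Among the 7 genes with reads, HNF4A had the lowest mean in all 4 groups. In MLL4 KO it could not be told from GATA6 beyond their spread, with 2.17 RPKM against 2.12 for GATA6 in replicate 2.

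**Figure D2:**
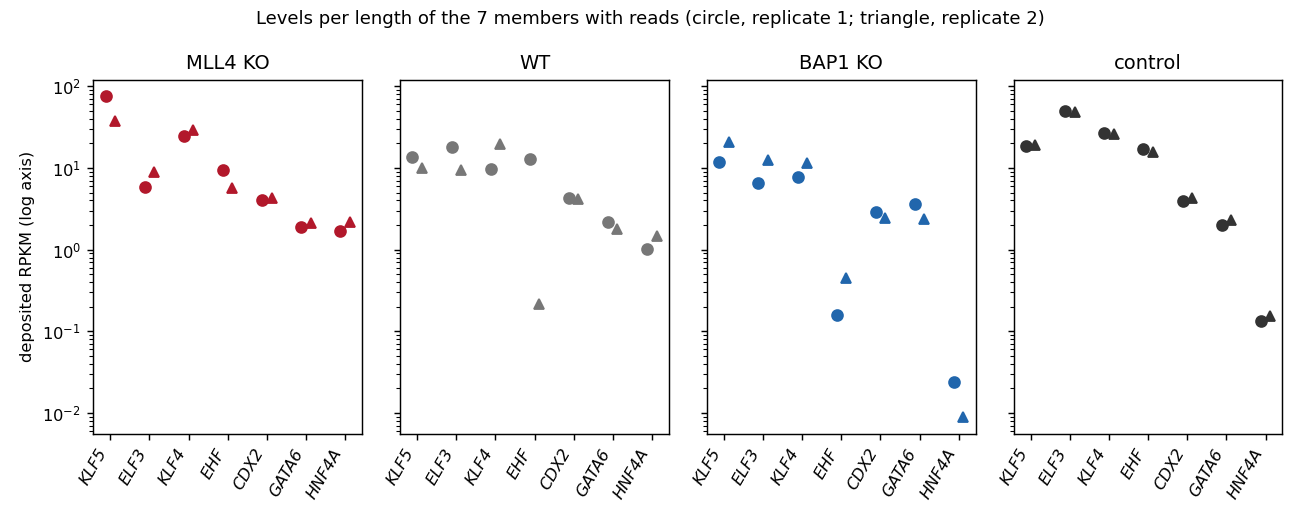
Deposited RPKM (log axis) of the 7 genes with reads, in 1 panel per group; circles are replicate 1 and triangles replicate 2. In MLL4 KO, KLF5 averages 57.3 RPKM and stands above the rest, in control ELF3 leads at 49.6 RPKM, and in BAP1 KO EHF and HNF4A lie below 1 RPKM. HNF4A also lies below 1 RPKM in control (mean 0.145), and EHF does in WT replicate 2 (0.219).

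HNF4A, the nuclear receptor of the set, spans 78898 bases of chromosome 20 (44355699 to 44434596, GRCh38.p14). It had 0.191 and 0.0712 CPM in BAP1 KO libraries, against 1.14 and 1.28 CPM in control libraries. These levels rest on 6 and 2 reads in BAP1 KO and on 29 and 50 reads in control, and they do not overlap. Pooled over libraries and scaled to depth, reads in BAP1 KO were 0.11 times those in control, with an exact 95% interval of 0.0459 to 0.227 that covers counting error only. HNF4A fell in BAP1 KO (log2 fold change -3.15 ± 0.65, adjusted p = 0.00816). The adjusted p was 0.0565 without BAP1 KO replicate 2 and 0.0592 without control replicate 2, and ran from 4e-06 to 0.0592 over 21 alternatives.

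HNF4A stood higher in the other pair of groups, at 13.5 and 17.6 CPM in MLL4 KO libraries, against 8.03 and 11.8 CPM in WT libraries. Both MLL4 KO libraries were above both WT libraries, but the difference did not pass (log2 fold change 0.64 ± 0.23, adjusted p = 0.0797). The 2 unedited groups differed as well: HNF4A was 8.15-fold lower in control than in WT (log2 fold change -3.03 ± 0.31, adjusted p = 0.000131), in a comparison that called 39.6% of tested genes. Its fall in BAP1 KO therefore starts from about 1 CPM. The antisense gene HNF4A-AS1, which overlaps it, had no read in any library. In bulk RNA, fewer cells with a transcript and less transcript per cell cannot be told apart, here and for every gene below.

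The promoters of the genes that fell in BAP1 KO and of KLF5 are printed because those genes moved. Each window runs from 250 bases before a RefSeq start to 50 bases from the start on (GRCh38.p14, 5′ to 3′ along the gene). Capitals mark matches, on either strand, to 7 short words that the factors of this set or their relatives are known to bind. The shares are those of 35116 RefSeq promoter windows of the same length. The HNF4 word searched was CAAAGTCC, held by 1.2% of windows. For HNF1 factors the word was GTTAAT, which 6.88% of windows held. GATA factors were searched by AGATAA, found in 10.3% of windows. For CDX factors, TTTATG was present in 10.6% of windows. The GC box of KLF and SP factors, GGGCGG, was present in 45.0% of windows. The CACCC box of KLF factors was searched as CCACCC, with matches in 34.3% of windows. ETS factors were searched by CCGGAA, which occurred in 17.2% of windows. A match is a description of letters and not evidence of binding. HNF4A has a pair of windows here, the upstream at chr20:44355449-44355748 and the downstream at chr20:44400989-44401288, both on the + strand.
HNF4A upstream: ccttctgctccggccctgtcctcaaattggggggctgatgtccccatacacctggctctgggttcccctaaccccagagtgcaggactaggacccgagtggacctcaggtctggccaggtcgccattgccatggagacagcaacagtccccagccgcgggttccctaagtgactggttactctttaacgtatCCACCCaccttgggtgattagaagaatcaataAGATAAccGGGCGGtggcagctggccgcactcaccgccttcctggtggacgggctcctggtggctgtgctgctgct
HNF4A downstream: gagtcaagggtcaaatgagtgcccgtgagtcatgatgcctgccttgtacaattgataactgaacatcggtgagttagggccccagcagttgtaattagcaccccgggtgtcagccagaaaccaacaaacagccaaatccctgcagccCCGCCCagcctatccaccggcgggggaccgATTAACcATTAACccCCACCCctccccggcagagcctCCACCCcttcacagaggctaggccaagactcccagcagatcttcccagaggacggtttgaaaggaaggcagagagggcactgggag
The upstream window held the GATA word and both KLF words between its middle and the start. The downstream window held the HNF1 word at a pair of neighbouring positions on the opposite strand, beside matches to both KLF words.

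CDX2, the hindgut homeobox gene, lies on chromosome 13 (27960918 to 27969315). It had 12.3 and 10.7 CPM in BAP1 KO libraries, against 18.1 and 19.3 CPM in control libraries. Both BAP1 KO libraries were lower, and CDX2 fell (log2 fold change -0.70 ± 0.15, adjusted p = 0.0106). The adjusted p was 0.0671 with BAP1 KO replicate 2 left out, and 0.0715 and 0.109 with the first or second control library left out, the last being the highest over 21 alternatives that began at 0.00209. In MLL4 KO libraries CDX2 had 17.6 and 18.7 CPM, against 18.0 and 18.3 CPM in WT libraries. Those groups overlapped (log2 fold change 0.0016 ± 0.15, adjusted p = 0.995), and CDX2 was the steadiest of the 7 across the 6 libraries other than BAP1 KO, with 17.6 to 19.3 CPM. Its promoter window (chr13:27969266-27969565, - strand) held the GATA word and the HNF1 word.
CDX2: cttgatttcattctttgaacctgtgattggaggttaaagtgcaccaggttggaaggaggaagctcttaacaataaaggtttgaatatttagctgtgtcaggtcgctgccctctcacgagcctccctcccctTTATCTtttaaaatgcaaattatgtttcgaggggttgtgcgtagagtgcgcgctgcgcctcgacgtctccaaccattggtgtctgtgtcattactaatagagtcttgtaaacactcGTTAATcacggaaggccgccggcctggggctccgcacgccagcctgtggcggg

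CDX1, the other hindgut homeobox gene (chromosome 5, 150166778 to 150184558), had no read in any of the 8 libraries. A count of 0 allows up to 3 reads, which is 0.0683 to 0.118 CPM depending on the library. No change could be tested for it, and it was the only 1 of the 8 genes under 1 CPM in every library.

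GATA6 (chromosome 18, 22169589 to 22202528) had 8.47 and 9.76 CPM in MLL4 KO libraries, against 9.66 and 8.31 CPM in WT libraries. It had 16.3 and 11.0 CPM in BAP1 KO libraries, against 9.48 and 11.1 CPM in control libraries. The groups overlapped in both comparisons. The log2 fold change was 0.021 ± 0.22 in MLL4 KO (adjusted p = 0.96) and 0.41 ± 0.22 in BAP1 KO (adjusted p = 0.211), and no alternative called it. Its relative GATA2, a factor of blood and other lineages, had 117 and 24.5 CPM in MLL4 KO libraries, against 16.9 and 16.7 CPM in WT libraries, and did not pass either (log2 fold change 2.08 ± 0.67, adjusted p = 0.0817). GATA3, known from lymphoid and epithelial tissues, fell in BAP1 KO to 0.351 and 0.427 CPM, against 2.55 and 2.62 CPM in control (log2 fold change -2.73 ± 0.40, adjusted p = 0.00176). GATA4, the partner of GATA6 in the small intestine, had no read.

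KLF4, the KLF factor of differentiated cells (chromosome 9, 107484852 to 107489769), had 29.4 and 44.0 CPM in BAP1 KO libraries, against 107 and 102 CPM in control libraries. It fell (log2 fold change -1.52 ± 0.34, adjusted p = 0.0199), with both BAP1 KO libraries far below either control library. The adjusted p was 0.116 with BAP1 KO replicate 1 left out, and 0.0983 and 0.0873 with the first or second control library left out, within a range of 1.89e-06 to 0.116 over 21 alternatives. In MLL4 KO libraries KLF4 had 92.9 and 112 CPM, against 36.2 and 75.6 CPM in WT libraries. Both MLL4 KO libraries were higher, but the difference did not pass (log2 fold change 0.87 ± 0.33, adjusted p = 0.109). DESeq2 called it at 0.0155, the replicate block at 0.0405 and the fit without WT replicate 2 at 0.0243, and over 21 alternatives the adjusted p reached 0.325. The WT libraries themselves differed by 1.04 on the log2 scale for KLF4, a gap reached by 2.09% of 11724 genes with at least 5 CPM on average in WT. Both control libraries stood above both WT libraries for KLF4. That difference did not pass (log2 fold change 0.91 ± 0.33, adjusted p = 0.0681), though DESeq2 called it at 0.00646. The BAP1 KO libraries overlapped those of WT, so the fall of KLF4 in BAP1 KO was from a level above both WT libraries. Its promoter window (chr9:107489720-107490019, - strand) held the GC box at 4 places, counting both strands.
KLF4: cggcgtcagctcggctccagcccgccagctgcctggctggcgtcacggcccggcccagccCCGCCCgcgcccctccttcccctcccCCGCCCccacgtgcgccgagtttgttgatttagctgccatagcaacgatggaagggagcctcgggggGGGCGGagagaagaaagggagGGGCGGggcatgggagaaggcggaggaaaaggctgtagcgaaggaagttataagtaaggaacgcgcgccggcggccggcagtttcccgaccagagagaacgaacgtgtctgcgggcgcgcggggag

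KLF5, the KLF factor of proliferating crypt cells (chromosome 13, 73054976 to 73077538), had 320.0 and 161 CPM in MLL4 KO libraries, against 56.3 and 42.1 CPM in WT libraries. Both MLL4 KO libraries stood above all 6 others. KLF5 rose (log2 fold change 2.29 ± 0.39, adjusted p = 0.0159), although the MLL4 KO libraries differed from each other by 0.99 on the log2 scale. The adjusted p was 0.0663 in a fit to the 4 MLL4 KO and WT libraries alone and 0.115 without WT replicate 2, and ran from 8.45e-12 to 0.115 over 21 alternatives, with log2 fold changes of 1.71 to 2.72. In BAP1 KO libraries KLF5 had 50.2 and 89.3 CPM, against 81.5 and 82.4 CPM in control libraries. Those groups overlapped (log2 fold change -0.23 ± 0.38, adjusted p = 0.70).

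KLF5 was given in 2 transcript rows, a longer and a shorter. The shorter row had 23.7% and 22.3% fewer reads than the longer in MLL4 KO libraries, against 23.6% and 24.5% fewer in WT libraries. This is a net gap, as each row may hold reads that the other lacks. The gap was 15.6% and 18.0% in BAP1 KO libraries, against 20.8% and 22.8% in control libraries. The gap in MLL4 KO thus lay close to that in WT while the level of the gene differed. KLF5 has windows at an upstream start (chr13:73054726-73055025, + strand) and a downstream start (chr13:73058755-73059054, + strand). The upstream window has a GC content of 40.7% and none of the 7 words, and the downstream window has 71.3% and the GC box at 2 places, both on the opposite strand.
KLF5 upstream: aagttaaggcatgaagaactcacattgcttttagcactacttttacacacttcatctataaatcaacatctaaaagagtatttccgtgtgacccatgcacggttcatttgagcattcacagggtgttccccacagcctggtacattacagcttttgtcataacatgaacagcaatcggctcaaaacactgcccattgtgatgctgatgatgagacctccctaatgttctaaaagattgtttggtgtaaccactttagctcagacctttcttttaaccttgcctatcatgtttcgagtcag
KLF5 downstream: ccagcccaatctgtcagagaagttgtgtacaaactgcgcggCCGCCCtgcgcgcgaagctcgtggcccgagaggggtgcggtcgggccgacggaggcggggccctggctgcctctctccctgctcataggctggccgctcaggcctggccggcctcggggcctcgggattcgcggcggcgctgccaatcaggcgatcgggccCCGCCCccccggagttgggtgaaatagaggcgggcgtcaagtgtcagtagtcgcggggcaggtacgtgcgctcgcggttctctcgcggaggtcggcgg

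The other KLF family genes were set beside KLF4 and KLF5. Of 15 such genes 13 were tested, and in MLL4 KO 8 rose and edgeR called 0 lower, where 1 was lower at an unadjusted p under 0.05 and DESeq2 and limma-voom each called 0. Among all tested genes 9.13% were called higher and 10.0% lower. Their median log2 fold change was 0.95, beside 0.0 over all tested genes. KLF13 had 188 and 177 CPM in MLL4 KO libraries, against 91.9 and 96.7 CPM in WT libraries (log2 fold change 0.95 ± 0.13, adjusted p = 0.00633). KLF10, an early TGF-beta response gene, had 186 and 177 CPM in MLL4 KO libraries, against 88.3 and 107 CPM in WT libraries (0.90 ± 0.12, adjusted p = 0.00645). KLF3 and KLF2 rose by 0.80 ± 0.13 (adjusted p = 0.0101) and 0.99 ± 0.19 (adjusted p = 0.0148). The unedited groups differed as well. In control against WT 5 of the 13 were higher and 3 lower, with a median of 0.69, where 39.6% of tested genes were called. There KLF10 (0.91 ± 0.12, adjusted p = 0.000629) and KLF3 (1.07 ± 0.13, adjusted p = 0.00042) were higher. KLF13 was not called (0.29 ± 0.13, adjusted p = 0.102), and KLF2 was lower (-0.60 ± 0.20, adjusted p = 0.0358). In a fit to the 4 MLL4 KO and WT libraries alone 0 of the 13 were called higher, and 10 were without WT replicate 1.

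In BAP1 KO 2 of the 13 rose and 2 fell, close to the 12.1% and 10.4% of all tested genes, with a median log2 fold change of -0.12. KLF12 had 39.4 and 23.4 CPM in BAP1 KO libraries, against 6.35 and 7.46 CPM in control libraries (log2 fold change 2.18 ± 0.25, adjusted p = 0.000586). KLF2 rose by 1.37 ± 0.20 (adjusted p = 0.00166), KLF15 fell by 1.79 ± 0.38 (adjusted p = 0.00938) and KLF11 fell by 0.83 ± 0.21 (adjusted p = 0.0216) on the log2 scale. The lower count ranged from 0 without BAP1 KO replicate 1 to 4 in the fit to the 4 libraries of that comparison. KLF2 was higher in both knockouts, each against its own unedited group.

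**Figure D3:**
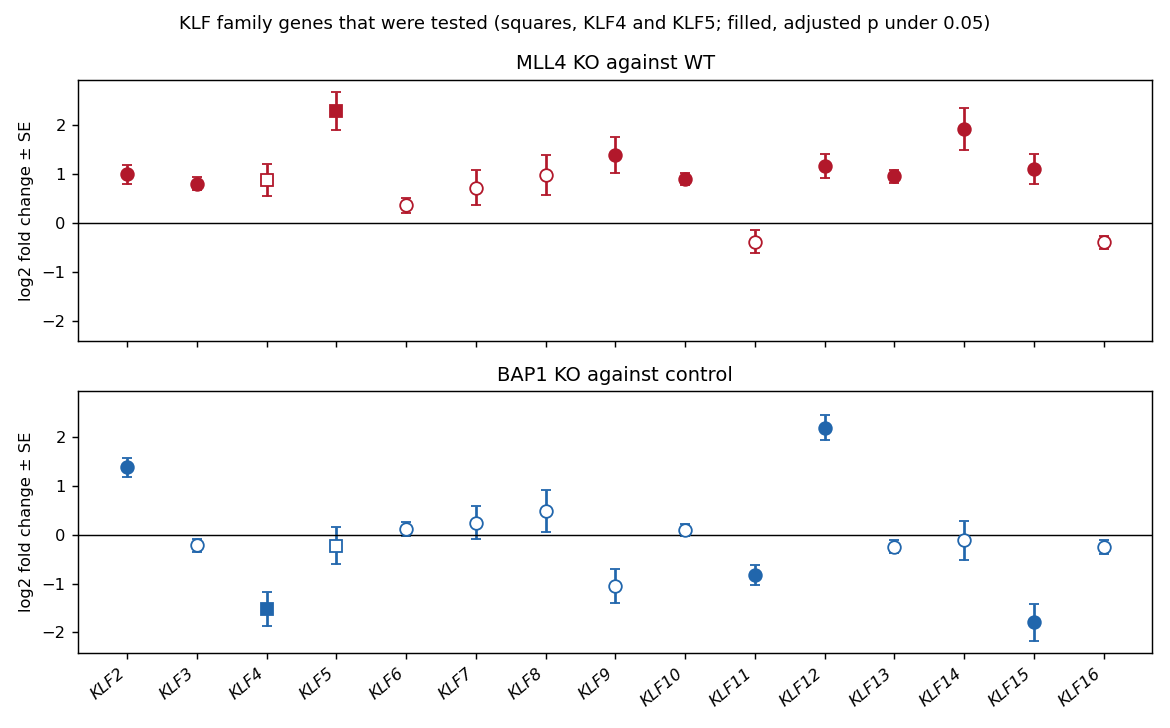
Log2 fold change (points) with its standard error (bars) of KLF4 and KLF5 (squares) and the 13 other tested KLF genes (circles), in MLL4 KO against WT (top) and BAP1 KO against control (bottom); filled symbols have an adjusted p under 0.05. In MLL4 KO every filled symbol lies above 0, and in BAP1 KO filled symbols lie on both sides.

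ELF3, the ETS factor whose loss in mice disturbs differentiation of the small intestine, lies on chromosome 1 (202010587 to 202017183). It had 26.6 and 51.9 CPM in BAP1 KO libraries, against 211 and 206 CPM in control libraries. ELF3 fell (log2 fold change -2.41 ± 0.41, adjusted p = 0.00772), and its control libraries were the highest of the 8. The adjusted p was 0.0523 without control replicate 1, the highest over 21 alternatives that began at 1.55e-05. In MLL4 KO libraries it had 23.6 and 36.4 CPM, against 71.0 and 38.7 CPM in WT libraries, which did not overlap by a narrow margin and did not pass (log2 fold change -0.87 ± 0.40, adjusted p = 0.165). ELF3 was 3.81-fold higher in control than in WT (log2 fold change 1.93 ± 0.40, adjusted p = 0.00932; 0.0577 without WT replicate 2, 0.0501 without control replicate 1, and 0.000539 to 0.0577 over 20 alternatives). Its fall in BAP1 KO was thus from a level above that of WT. The promoter window (chr1:202010337-202010636, + strand) held none of the 7 words.
ELF3: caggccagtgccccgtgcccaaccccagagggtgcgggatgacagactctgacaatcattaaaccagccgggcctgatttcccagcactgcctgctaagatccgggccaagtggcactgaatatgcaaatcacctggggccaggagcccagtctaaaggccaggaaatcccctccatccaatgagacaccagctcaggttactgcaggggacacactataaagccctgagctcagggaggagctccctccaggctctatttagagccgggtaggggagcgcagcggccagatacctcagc

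EHF, the related ETS factor (chromosome 11, 34621093 to 34663288), had 1.08 and 3.10 CPM in BAP1 KO libraries, against 121 and 109 CPM in control libraries. The pooled level was 55.8-fold lower in BAP1 KO, from 121 reads against 7335 in control, with an exact 95% interval of 46.6 to 67.4 that covers counting error only. The groups lie far apart, but with all 8 libraries in the fit the difference did not pass (log2 fold change -5.80 ± 1.91, adjusted p = 0.0994). The spread of EHF in WT enters that estimate: with either WT library left out the adjusted p was 0.000775 or 0.000905, and in the fit to the 4 BAP1 KO and control libraries it was 0.000366. DESeq2 (0.00144), the stricter filter (0.047) and the fit without the robust step (0.0188) also called it, so 6 of 21 alternatives did, with adjusted p up to 0.313 in the rest.

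In MLL4 KO libraries EHF had 63.4 and 39.3 CPM, against 85.3 and 1.50 CPM in WT libraries. The MLL4 KO libraries lay between the 2 WT libraries, and the log2 fold change was 0.26 ± 1.43 (adjusted p = 0.918). It was 5.10 without WT replicate 1 (adjusted p = 0.00425) and -0.73 without WT replicate 2 (adjusted p = 0.338), so which WT library is kept sets the sign. The WT libraries differed by 5.11 on the log2 scale for EHF. No other of the 11724 genes with at least 5 CPM on average in WT differed between those libraries by as much, and the median difference was 0.23. The same 2 libraries differed by 0.86 for ELF3 and by 0.02 for CDX2, with WT replicate 1 higher for ELF3. At 1.50 CPM, WT replicate 2 lay within the range of the BAP1 KO libraries.

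**Figure D4:**
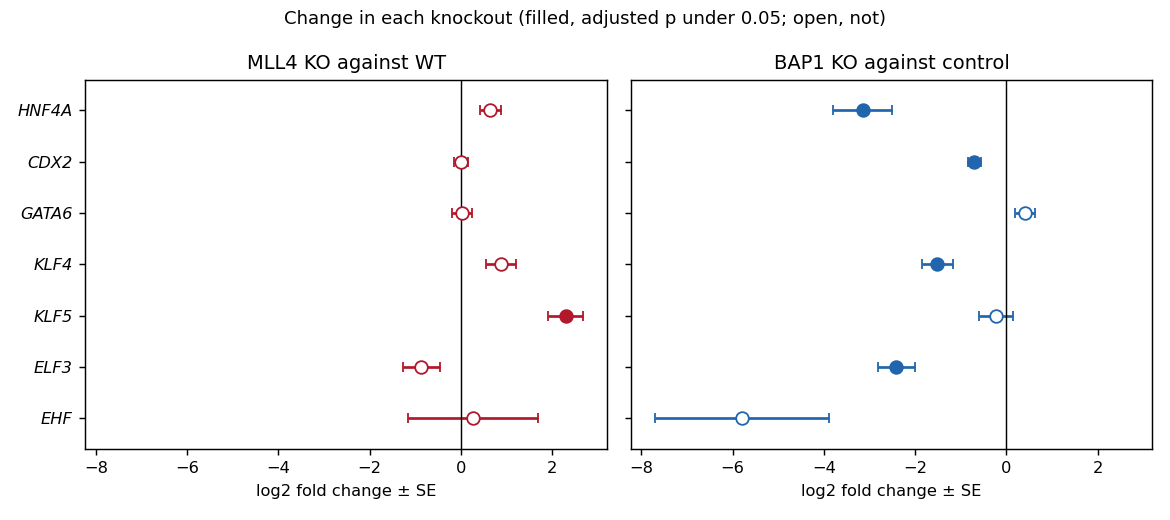
Log2 fold change (points) with its standard error (bars) of the 7 tested genes in MLL4 KO against WT (left) and BAP1 KO against control (right); filled points have an adjusted p under 0.05. KLF5 is the filled point at left (2.29), and HNF4A, CDX2, KLF4 and ELF3 are the filled points at right (-3.15, -0.70, -1.52 and -2.41).

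Each knockout has its own unedited group, and those groups differed from each other in 39.6% of tested genes. Knockout and unedited group therefore cannot be told apart in the comparison that follows. The changes in the 2 knockouts, which share no libraries, were compared directly as the MLL4 KO change minus the BAP1 KO change. That difference passed for 3 of the 7 genes, against 16.1% of tested genes, and was positive for each, as for 7.75% of tested genes: 3.78 ± 0.68 for HNF4A (adjusted p = 0.0075), 2.53 ± 0.54 for KLF5 (adjusted p = 0.0246) and 2.39 ± 0.48 for KLF4 (adjusted p = 0.0184) on the log2 scale. For CDX2 it was 0.70 ± 0.21 and just missed (adjusted p = 0.0504), with 0.0317 to 0.209 over 19 alternatives. ELF3 (1.54 ± 0.56, adjusted p = 0.109), EHF (6.06 ± 2.37, adjusted p = 0.159) and GATA6 (-0.39 ± 0.31, adjusted p = 0.425) did not pass. Of 19 alternatives 4 called the difference for EHF, namely DESeq2 (0.0315), the fit without the robust step (0.0461) and those without WT replicate 1 (0.00118) or WT replicate 2 (0.0111), and its size ran from 5.07 to 10.9, with adjusted p up to 0.33. For ELF3 it was called in 1, without BAP1 KO replicate 2 (0.0455), with adjusted p up to 0.288. The call for HNF4A held in all 19 alternatives. For KLF4 it was lost without MLL4 KO replicate 2 (0.0584), BAP1 KO replicate 1 (0.0628), control replicate 1 (0.0698) or control replicate 2 (0.0691). For KLF5 it was lost with no filter on low counts (0.0566) and without WT replicate 2 (0.0985), BAP1 KO replicate 1 (0.0592), control replicate 1 (0.0895) or control replicate 2 (0.0958).

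Other transcription factors of the intestinal epithelium were counted as a list of 32, of which 23 were tested. In BAP1 KO 6 of the 23 fell and 2 rose, beside 10.4% and 12.1% of all tested genes, with a median log2 fold change of -0.23, and 1 to 7 were lower across the alternatives. HNF4G, the intestinal paralog of HNF4A, had 1.75 and 0.712 CPM in BAP1 KO libraries, against 4.0 and 4.38 CPM in control libraries (log2 fold change -1.74 ± 0.42, adjusted p = 0.017). PITX1, a hindlimb homeobox factor, fell by 0.93 ± 0.17 (adjusted p = 0.00536), and PRDM1, a repressor that in mice governs the timing of gut maturation, by 1.56 ± 0.42 (adjusted p = 0.0263). TCF7L2, the main WNT effector of the crypt, had 466 and 448 CPM in BAP1 KO libraries, against 107 and 109 CPM in control libraries, and rose (2.08 ± 0.12, adjusted p = 1.65e-05). HES1, a NOTCH target, rose by 0.70 ± 0.19 (adjusted p = 0.0311).

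In MLL4 KO 2 of the same 23 rose and 2 fell, close to the 9.13% and 10.0% of all tested genes, with a median of -0.23. Across the 21 alternatives 0 to 3 were higher and 0 to 6 lower, and the higher count moved by over 1.5 times in 15 of them. HES1 had 25.2 and 31.0 CPM in MLL4 KO libraries, against 16.6 and 10.8 CPM in WT libraries (log2 fold change 1.04 ± 0.20, adjusted p = 0.0144). ATOH1, the secretory lineage factor, passed at 0.455 and 0.361 CPM in MLL4 KO libraries, against 0.0 and 0.0625 CPM in WT libraries, which is a handful of reads (adjusted p = 0.0445). MYB, a factor of crypt progenitors, fell by 1.66 ± 0.27 (adjusted p = 0.01), and NR5A2, a nuclear receptor of crypt renewal, by 1.22 ± 0.31 (adjusted p = 0.0287). In the fit to the 4 MLL4 KO and WT libraries alone, none of the 23 was called in either direction.

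Differentiation genes that these factors are known to act on were sparse. Of 38 enterocyte and colonocyte genes 15 were tested. KRT20, a keratin of mature colonocytes, was the only 1 called in MLL4 KO, where 19.1% of all tested genes were called. In BAP1 KO 1 of the 15 rose and 1 fell, beside 12.1% and 10.4% of all tested genes. KRT20 had 2.64 and 2.26 CPM in MLL4 KO libraries, against 0.388 and 0.281 CPM in WT libraries (log2 fold change 2.89 ± 0.41, adjusted p = 0.00684). It also rose in BAP1 KO, to 6.64 and 7.59 CPM, against 0.862 and 0.513 CPM in control libraries (3.43 ± 0.31, adjusted p = 0.000198). DPP4, a brush border peptidase, fell in BAP1 KO to 0.383 and 0.0712 CPM, against 11.3 and 9.82 CPM in control libraries (-5.46 ± 0.62, adjusted p = 0.000634). Summed over all 38 genes the level was 75.2 and 75.2 CPM in MLL4 KO libraries, against 70.5 and 61.7 CPM in WT libraries. It was 73.5 and 65.6 CPM in BAP1 KO libraries, against 64.2 and 63.7 CPM in control libraries. CA2 (22.7 to 34.7 CPM), VIL1 (11.9 to 17.2 CPM) and CA4 (6.25 to 12.3 CPM) made up most of this sum, so it says little about the rest of the list.

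Of 18 goblet, enteroendocrine and Paneth genes 8 had no read and 2 were tested. By edgeR 0 were called in either knockout. At an unadjusted p under 0.05 the counts were 0 in MLL4 KO and 1 lower in BAP1 KO, and DESeq2 and limma-voom each called 0 in MLL4 KO and 1 lower in BAP1 KO. MUC2, the goblet mucin, stayed at or under 1.14 CPM in every library. FCGBP, a component of goblet mucus, carried nearly all of the list's summed level. It had 16.0 and 25.3 CPM in BAP1 KO libraries, against 51.8 and 50.2 CPM in control libraries (log2 fold change -1.31 ± 0.44, adjusted p = 0.0753), and 17.5 and 23.2 CPM in MLL4 KO libraries, against 20.6 and 7.28 CPM in WT libraries (0.56 ± 0.45, adjusted p = 0.407).

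Epithelial genes were followed as a list of 12, of which ELF3 is one. In BAP1 KO 8 of the 12 fell, beside 10.4% of all tested genes, with a median log2 fold change of -1.06, and edgeR, DESeq2 and limma-voom each called 0 higher, as did an unadjusted p under 0.05. GRHL2, a grainyhead factor that sustains epithelial junctions, had 1.28 and 2.53 CPM in BAP1 KO libraries, against 43.5 and 41.5 CPM in control libraries (log2 fold change -4.50 ± 0.25, adjusted p = 1.25e-05). The tight junction gene CLDN7 fell by 1.93 ± 0.25 (adjusted p = 0.00123), the adhesion gene EPCAM by 1.33 ± 0.21 (adjusted p = 0.00313) and the keratin KRT18 by 0.98 ± 0.12 (adjusted p = 0.000787). The list's lower count ran from 5 without control replicate 1 to 11 under DESeq2. The part of these epithelial genes in the fall of HNF4A, CDX2, KLF4 and ELF3 was not tested. The same list was higher in control than in WT for 8 of its 12 genes, beside 19.9% of tested genes.

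In MLL4 KO 2 of the 12 epithelial genes rose and 2 fell, beside 9.13% and 10.0% of all tested genes. KRT18 and KRT8, the simple epithelial keratins, rose by 1.01 ± 0.12 (adjusted p = 0.00394) and 0.74 ± 0.12 (adjusted p = 0.00897), while EPCAM fell by 1.12 ± 0.21 (adjusted p = 0.0145) and GRHL2 by 0.73 ± 0.19 (adjusted p = 0.0311). Of 20 gastric, oesophageal and squamous genes 9 were tested, and 3 rose in MLL4 KO, beside 9.13% of all tested genes, with 0 called in the fit to its 4 libraries alone. In BAP1 KO 1 of the 9 rose, beside 12.1% of all tested genes, with a median log2 fold change of 1.11 and 0 to 5 called higher across the alternatives. That gene, the gastric claudin CLDN18, had 1.21 and 0.677 CPM in BAP1 KO libraries, against 0.235 and 0.231 CPM in control libraries (2.02 ± 0.54, adjusted p = 0.0253). KRT5, a basal squamous keratin, had 9.99 and 1.45 CPM in MLL4 KO libraries, against 0.0388 and 0.156 CPM in WT libraries (log2 fold change 5.78 ± 1.31, adjusted p = 0.0264). KRT13, another squamous keratin, had 21.1 and 3.19 CPM in MLL4 KO libraries, against 0.853 and 1.37 CPM in WT libraries, and did not pass (adjusted p = 0.0566). KRT6A, also a squamous keratin, had 3.41 and 1.60 CPM, against 0.388 and 1.72 CPM in WT libraries, and did not pass (adjusted p = 0.155). The gastric mucin MUC6 had 2.69 and 2.38 CPM, against 3.61 and 1.37 CPM in WT libraries (adjusted p = 0.912). The 3 keratins and KLF5 were highest in MLL4 KO replicate 1, and MUC6 was not. KRT13, KRT6A and MUC6 were picked from the list after their values were seen. TP63, the squamous master regulator, had at most 0.233 CPM in any library. The part of these genes in the rise of KLF5 was not tested.

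Genes whose 8 values lay closest to those of a member, by root mean square difference of centred log2(CPM + 1) over the 8 libraries, were named for the 5 members whose group means ranged over at least 1 on that scale. KLF5 was nearest to ADIRF (0.30), ST6GALNAC2 (0.30) and SLC16A5 (0.36). ADIRF had 423 and 425 CPM in MLL4 KO libraries, against 97.7 and 74.4 CPM in WT libraries, and 128 and 163 CPM in BAP1 KO libraries, against 172 and 173 CPM in control libraries. KLF4 was nearest to TMEM268 (0.30), GADD45B (0.31) and SERTAD2 (0.31). HNF4A was nearest to STON2 (0.47), TNS4 (0.51) and PLK2 (0.52). STON2 had 9.10 and 8.85 CPM in MLL4 KO libraries, against 8.72 and 11.2 CPM in WT libraries, and 0.511 and 0.499 CPM in BAP1 KO libraries, against 1.25 and 2.31 CPM in control libraries, so it shared the gap between the 2 pairs of groups.

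ELF3 was nearest to KLK7 (0.28), PRSS22 (0.34) and CD22 (0.39). KLK7, a secreted serine protease, had 12.4 and 22.9 CPM in BAP1 KO libraries, against 89.3 and 89.7 CPM in control libraries, and 10.2 and 11.2 CPM in MLL4 KO libraries, against 22.4 and 10.0 CPM in WT libraries. EHF had no close match: KRT7 (1.09), KLK10 (1.23) and LONRF2 (1.32) were its nearest. KRT7, a keratin of ductal epithelia, had 0.638 and 6.38 CPM in BAP1 KO libraries, against 82.8 and 85.3 CPM in control libraries, and 30.6 and 8.85 CPM in MLL4 KO libraries, against 18.4 and 4.16 CPM in WT libraries.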

How the data were processed

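Polyadenylated RNA was selected from 1 µg of total RNA and sequenced in 8 libraries, per the labels' protocols. A further 15 ChIP-seq samples were not analysed here. Each deposited table gives whole read counts, not normalized by the authors, and RPKM values for RefSeq transcripts, per the file headers. The submitters' processing notes name hg38, bcl2fastq, Bowtie2, STAR and SICER 1.1 without roles. The sources used here name neither the counter nor its strand setting, and isoform rows of a gene share reads.

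Of 88819 rows, 605 without a symbol in the RefSeq gene table (GRCh38.p14) were left out (0.23% to 0.252% of counts). For each gene the row with the highest mean count was used. Counts were fitted with edgeR 4.0.16 in R 4.3.3 (filterByExpr, TMM, quasi-likelihood with robust empirical Bayes, a mean per group, all 8 libraries, two-sided, Benjamini-Hochberg over 16831 genes), after the model had been tested on simulated data. CPM are TMM-scaled. RPKM entered no test and only ordered levels between genes. Tried as alternatives were DESeq2 1.42.0, limma-voom (limma 3.58.1), scaling by RLE or the upper quartile, no and a stricter filter (1 CPM in 4 libraries), only the 4 libraries of a comparison, no robust step, the longest or the summed transcript rows, a replicate block and leaving out each library, where a lone library was assumed to vary like the others. The legacy dispersion and a crossed block were chosen after seeing the data. Promoter sequences are from RefSeq (GRCh38.p14), and 7 of the 8 members matched.

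The members and lists were chosen with earlier results of these data known. Named from each list were up to 4 called genes per direction and knockout by smallest p, and genes of high level. The values of 1 such gene are not reported here. Others, including GATA2, GATA4, KRT13, KRT6A, KRT8, TP63, VIL1, CDH17, MUC2, MUC6, FCGBP, FABP1 and markers without reads, were named after their values were seen.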

Additional observations from a re-analysis of the deposited data

Results flagged for a closer look

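The changes in the 2 knockouts differed from each other, by the edgeR test of the difference itself over all 8 libraries, for 3 members. The unedited groups differ too, so knockout and unedited group cannot be told apart in that test. HNF4A had 13.5 and 17.6 CPM in MLL4 KO libraries, against 8.03 and 11.8 CPM in WT libraries, and 0.191 and 0.0712 CPM in BAP1 KO libraries, against 1.14 and 1.28 CPM in control libraries. Its MLL4 KO change exceeded its BAP1 KO change by 3.78 on the log2 scale (adjusted p = 0.0075). KLF4, not called in MLL4 KO and lower in BAP1 KO, had a difference of 2.39 (adjusted p = 0.0184). KLF5, higher in MLL4 KO and not called in BAP1 KO, had a difference of 2.53 (adjusted p = 0.0246).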

How the results depend on the processing

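With 2 libraries per group, single libraries decided many calls. Leaving out each library in turn, the genes called ranged from 530 to 5290 in MLL4 KO against WT (3219 with all), from 1075 to 5014 in BAP1 KO against control (3778), from 3253 to 7269 in control against WT (6662) and from 681 to 4426 for the difference of the knockouts (2704). Members called then ranged from 1 to 2 in MLL4 KO and from 1 to 5 in BAP1 KO. The lowest BAP1 KO count came without control replicate 1 and again without control replicate 2. With only the 4 libraries of a comparison, 60 genes and 0 members were called in MLL4 KO, and 6660 genes in BAP1 KO. DESeq2 called 2 members in MLL4 KO. Upper-quartile scaling called 1886 genes higher and 1211 lower in MLL4 KO, against 1536 and 1683 in the main analysis, and 1588 positive and 1080 negative for the difference, against 1304 and 1400. The other settings kept counts of genes within 1.5 times.

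The labels do not say whether replicate numbers pair the libraries. The correlation of deviations over genes was -0.189 for MLL4 KO and WT and -0.00096 for BAP1 KO and control. With 2 libraries per group, such a correlation cannot decide whether they were paired. The replicate block called 2360 genes and 2 members in MLL4 KO, 3312 genes and 4 members in BAP1 KO, 6194 genes in control against WT and 2185 for the difference. The crossed block, chosen after seeing the data, called 3367 and 3163 genes.

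No called member changed sign under any of the alternatives. Signs turned for uncalled members. CDX2 in MLL4 KO was -0.012 under RLE, -0.011 under DESeq2, -0.0023 under limma-voom, -0.0035 with no filter, -0.0038 with summed rows, and -0.024 to 0.047 with a library left out (-0.013 without WT replicate 1, -0.0046 without control replicate 2). GATA6 in MLL4 KO was -0.061 without MLL4 KO replicate 2 and -0.086 without WT replicate 2. EHF in MLL4 KO was -0.13 without MLL4 KO replicate 1 and ran from -0.73 without WT replicate 2 to 5.10 without WT replicate 1. KLF5 in BAP1 KO ran from -0.71 without BAP1 KO replicate 2 to 0.13 without BAP1 KO replicate 1. Except where fewer libraries were fitted, the cause was not tested. Depth limits HNF4A in BAP1 KO (8 reads) and CDX1 (0 reads).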

Other observations

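Genes of intestinal stem and crypt cells, a list of 18 with 14 tested, were counted in both knockouts. In BAP1 KO 4 rose and 3 fell, beside 12.1% and 10.4% of all tested genes. The higher count was 0 without control replicate 1, and 1 without BAP1 KO replicate 1 or control replicate 2. The lower count was 1 without any single one of the BAP1 KO or control libraries. CD44, an adhesion receptor of crypt cells, had 1388 and 1715 CPM in BAP1 KO libraries, against 655 and 628 CPM in control libraries (log2 fold change 1.28 ± 0.25, adjusted p = 0.00897). RNF43, a WNT receptor antagonist, had 16.3 and 9.80 CPM in BAP1 KO libraries, against 86.4 and 80.8 CPM in control libraries (-2.68 ± 0.64, adjusted p = 0.0328). In MLL4 KO 3 rose and 2 fell, beside 9.13% and 10.0% of all tested genes, and both counts were 0 in the fit to the 4 MLL4 KO and WT libraries alone. Among those that rose was NOTUM, a secreted WNT deacylase, at 23.2 and 29.2 CPM in MLL4 KO libraries, against 15.1 and 7.47 CPM in WT libraries (1.22 ± 0.29, adjusted p = 0.026). BMI1, a Polycomb gene, fell in both, by 1.21 ± 0.17 in BAP1 KO (adjusted p = 0.00139) and by 0.72 ± 0.17 in MLL4 KO (adjusted p = 0.0221). NKD1 rose in both, each against its own unedited group, by 0.87 ± 0.17 in BAP1 KO (adjusted p = 0.00636) and by 0.94 ± 0.16 in MLL4 KO (adjusted p = 0.0107). It was lower in control than in WT (-0.82 ± 0.17, adjusted p = 0.00453). Its BAP1 KO libraries, at 24.9 and 21.5 CPM, lay between the WT libraries, at 19.3 and 25.4 CPM. LGR5, the defining stem cell receptor, had at most 0.271 CPM in any library.

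The summed leukocyte list was 5.33 and 8.73 CPM in BAP1 KO libraries, against 28.5 and 29.3 CPM in control libraries. CD68, a lysosomal gene, made up most of it and fell (4.28 and 8.05 CPM in BAP1 KO libraries, against 27.3 and 28.2 CPM in control libraries; log2 fold change -2.18 ± 0.41, adjusted p = 0.00788), while CD3E and MS4A1 had no read.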
